A study of Homo sapiens with 20 samples.

Results

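The peaks of chromosome 10 were examined in 7 lists of accessible chromatin from SW872 cells, an established human liposarcoma line. A peak was a member if its chromosome column read 10, which gave 38561 of the 1407450 peaks in all lists. The chromosome was itself chosen by its low number of peaks in these lists, so that number is described here and was not tested. Accessible DNA was measured by ATAC-seq, in which the Tn5 transposase cuts open chromatin and leaves nucleosome-bound DNA largely uncut. Each of 7 vectors was stably introduced into the cells, and 20 libraries were made, 3 per vector except TFE3, which had 2. The deposited files hold 1 list per vector with no values per library, so there was no replicate error and no test between vectors. The intervals below are 95% counting intervals, which take peaks as independent and leave out the variation between libraries.

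All lists share the SW872 background, retroviral transduction and drug selection. The control cells carried the empty vector (EV), and 1 of the 3 EV libraries is titled a redo. TAZ4SA and YAP5SA are forms of the full-length coactivators TAZ and YAP with serines replaced by alanine, CAMTA1 and TFE3 are the full-length transcription factors, and TAZ-CAMTA1 and YAP-TFE3 are the fusions found in epithelioid hemangioendothelioma. The titles of the YAP-TFE3 libraries name YAP5SA as the YAP part. According to the methods of the study, the cells were pools of transduced cells, so a list describes overexpression in a mixed population of a single line that is not the tumor type in which the fusions arise. How many reads lie behind a list is unknown.

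TAZ and YAP are the effectors of the Hippo pathway. They have no DNA-binding domain of their own and reach enhancers mainly through TEAD factors, whereas CAMTA1 and TFE3 bind DNA themselves. Open chromatin marks active promoters and enhancers, so it is denser where genes are dense. The number of peaks called on a chromosome also depends on how many copies of it the cells carry, since each copy adds reads. Chromosome 10 carries ANKRD1, a commonly used reporter gene of TAZ and YAP activity. None of the transduced genes lies on it.

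Peaks on chromosome 10 were sparse in every list. The EV list held 4034 peaks there, or 29.8 per Mb, where the median of the other 21 autosomes was 54.1 per Mb. The TAZ4SA list held 3355 (24.8 against 46.7 per Mb), and the YAP5SA list 5977 (44.1 against 73.6 per Mb). These lists thus had 0.551, 0.530 and 0.599 of the usual density on this chromosome.

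The CAMTA1 list held 6564 peaks (48.4 against 75.4 per Mb). The TFE3 list held 4841 (35.7 against 53.7 per Mb). The TAZ-CAMTA1 list held 6790 (50.1 against 80.2 per Mb), and the YAP-TFE3 list 7000 (51.7 against 80.1 per Mb). The ratio to the median over all lists lay between 0.530 (counting interval 0.512 to 0.548) in the TAZ4SA list and 0.666 (0.647 to 0.685) in the TFE3 list, with a median of 0.625.

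No other autosome was sparser in the TAZ4SA list, and 1 was in the EV, YAP5SA and TAZ-CAMTA1 lists. In the YAP-TFE3, CAMTA1 and TFE3 lists 2, 3 and 4 other autosomes were sparser. As a share of the whole list, chromosome 10 took from 2.20% of the TAZ4SA peaks (Wilson interval 2.13 to 2.27) to 3.09% of the TFE3 peaks (3.01 to 3.18). The lists thus differed in how sparse the chromosome was, although it was below the median in all 7. Whether the vectors differ was not tested.

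**Figure D1:**
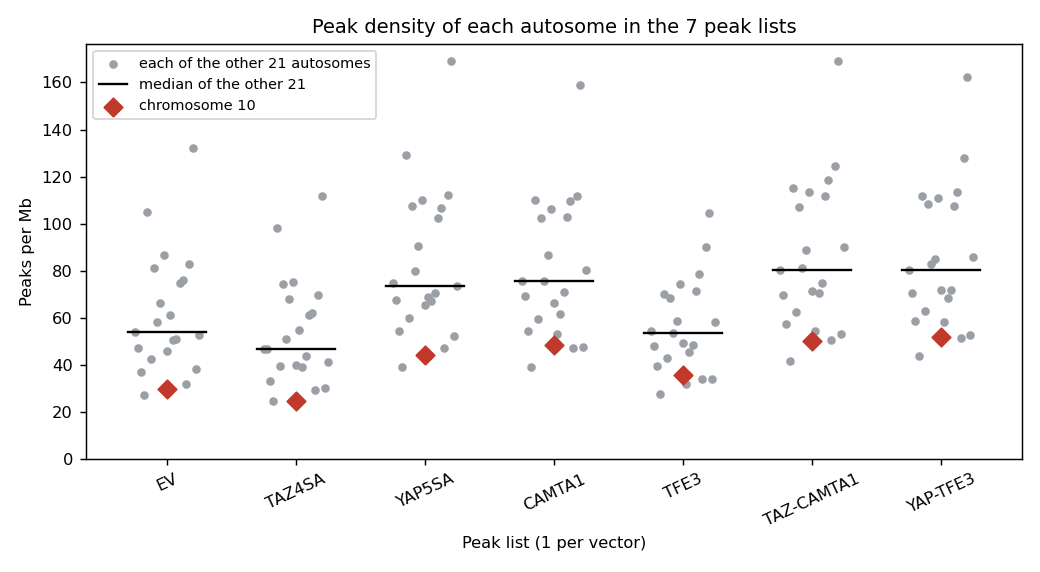
Peaks per Mb (y axis) of each autosome in each of the 7 lists (x axis), with chromosome 10 as a red diamond, the other 21 autosomes as grey points and their median as a black line. Chromosome 10 lies near the bottom of every column, between 24.8 peaks per Mb in the TAZ4SA list and 51.7 in the YAP-TFE3 list.

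The low density was less marked per gene. Chromosome 10 has 730 protein-coding genes in the GENCODE annotation of GRCh38, or 5.39 per Mb. That is close to the 5.84 per Mb of chromosome 7, which is the median of the other autosomes. The median is taken anew for each denominator and need not fall on the same autosome. Per protein-coding gene, the ratio of chromosome 10 to the median of the other autosomes had a median of 0.790 over the lists, from 0.635 to 0.870, and 2 to 4 other autosomes were lower. The chromosome thus stayed below the median with either denominator.

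The peaks were split by the −log10 p of their summit, the statistic of the authors' peak caller, into weak (under 5) and strong (at least 5). The split falls inside a continuous range: the EV list had peaks at 4.991 and 5.003 on either side of it, and 84 peaks within 0.1 below against 94 within 0.1 above. Both classes were sparse. The ratio of chromosome 10 to the median autosome ran from 0.596 in the EV list to 0.726 in the CAMTA1 list for strong peaks, and from 0.460 in TAZ4SA to 0.683 in TFE3 for weak peaks. Weak peaks were the sparser class in 6 lists, and in the TFE3 list the ratios, 0.683 (0.658 to 0.710) and 0.692 (0.664 to 0.722), could not be separated by counting error.

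Weak peaks made up 51.6% of the chromosome 10 peaks in the EV list against 58.3% on the other autosomes together. The TAZ4SA list had 44.8% against 55.1% and the YAP5SA list 48.7% against 56.2%. The full-length partner CAMTA1 gave 48.4% against 54.1%. In these 4 lists the chromosome had a smaller share of weak peaks than the rest of the autosomes.

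The TAZ-CAMTA1 list had 51.0% weak peaks on chromosome 10 against 56.2% elsewhere, and the YAP-TFE3 list 47.3% against 52.8%. The TFE3 list was the exception, with 54.7% against 54.4%. In the YAP5SA and YAP-TFE3 lists chromosome 10 had the fewest weak peaks per strong peak of all 22 autosomes. The TFE3 list is also the one that rests on 2 libraries, and its part in this difference was not tested.

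The peaks that were called on chromosome 10 were not small. In the YAP5SA list the summit −log10 p had a median of 5.07, above all other autosomes, whose median was 4.83. In the EV, TAZ4SA, CAMTA1, TAZ-CAMTA1 and YAP-TFE3 lists it was 4.93, 5.23, 5.10, 4.95 and 5.15, with 1 or 2 other autosomes higher. In the TFE3 list it was 4.79, close to the median of 4.81. The higher medians go with the smaller share of weak peaks, which is the same property seen from the other side.

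Whether the chromosome was sparse throughout or in segments was asked with bins of 1 Mb, 136 on chromosome 10, each peak counted where its summit lies. A bin was called low if it held fewer than 0.5 of the median count of all autosomal bins in that list. The EV list had 50 low bins (36.8%, against 34.4% of all autosomal bins), the TAZ4SA list 52 (38.2% against 32.0%) and the YAP5SA list 46 (33.8% against 33.0%). The CAMTA1 list had 39 low bins (28.7% against 33.9%) and the TFE3 list 43 (31.6% against 35.6%). With bins without any peak counted as low, the share was thus above that of all autosomes in the EV, TAZ4SA and YAP5SA lists and below it in the CAMTA1 and TFE3 lists.

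The fusions gave 45 low bins for TAZ-CAMTA1 (33.1% against 34.8%) and 44 for YAP-TFE3 (32.4% against 33.0%). In 36 bins (26.5%) the count was low in all 7 lists, where 28.2% of all autosomal bins were. Bins with no peak in any list numbered 5 (3.68%), against 215 of 2758 (7.80%) on the other autosomes. The chromosome thus had no surplus of bins without any peak. Such bins count as low, and the share of low bins among occupied bins alone was not computed. As they were rarer on chromosome 10, leaving them out would raise its share of low bins relative to that of all autosomes.

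Dense bins were scarce on chromosome 10. A bin was called dense if it held more than 2 times the autosomal median. The EV list had 5 dense bins (3.68%, against 25.7% of all autosomal bins) and the TAZ4SA list none (0, against 23.8%). The YAP5SA list had 2 (1.47% against 22.4%), and the CAMTA1 list 5 (3.68% against 23.4%). The dense end of the distribution was nearly missing.

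The TFE3 list had the most dense bins, 10 (7.35% against 24.1%). The TAZ-CAMTA1 list had 6 (4.41% against 25.5%) and the YAP-TFE3 list 5 (3.68% against 21.3%). Only 24 bins (17.6%) lay above the autosomal median in all 7 lists, where 43.1% of all autosomal bins did. Along the distribution, the 25th percentile of the bins was 0.833 to 1.63 times that of the other autosomes, the 75th percentile 0.466 to 0.646 times and the 90th percentile 0.436 to 0.575 times. With bins without a peak included on both sides, the gap to the other autosomes thus widened from the sparse bins to the dense ones.

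**Figure D2:**
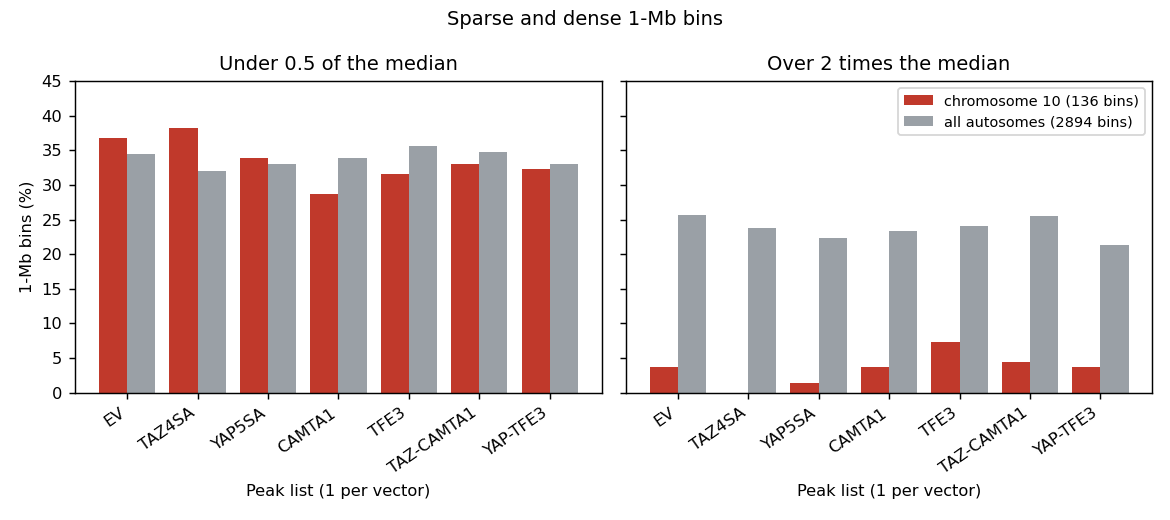
Percent of 1-Mb bins (y axis) with under 0.5 of the autosomal median count (left) and over 2 times that median (right) in each list (x axis), for chromosome 10 in red and for all autosomes in grey. With bins without a peak included, the low shares run from 28.7% to 38.2% on chromosome 10 and from 32.0% to 35.6% on all autosomes. The dense bins of chromosome 10 reach 7.35% at most.

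Strong and weak peaks were also counted apart. For strong peaks the low bins came to 30.1% to 36.0% per list (32.3% to 35.7% of all autosomal bins) and the dense bins to 3.68% to 8.08% (21.7% to 26.5%). For weak peaks the low bins came to 30.9% to 44.9% (31.0% to 34.5% of all autosomal bins, and 34.1% in the CAMTA1 and TAZ-CAMTA1 lists), with the EV list at 40.4% against 34.5% and the TAZ4SA list at 44.9% against 31.0%, and the dense bins to 1.47% to 6.62% (22.6% to 26.7%). The shortage of dense bins therefore held in both classes, and low bins of weak peaks were in surplus in the EV and TAZ4SA lists.

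The densest bin lay at chr10:134000001-135000000, near the end of the long arm (hg19). Over the lists it held 99 EV, 71 TAZ4SA, 154 YAP5SA, 168 CAMTA1, 116 TFE3, 203 TAZ-CAMTA1 and 192 YAP-TFE3 peaks, of which 60.2% were weak. Its count was on average 2.72 times the median, and 12.9% of all autosomal bins were denser. By the measure of the autosomes the densest bin of the chromosome was thus unexceptional.

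The next densest bins began at 80000001, 71000001, 105000001 and 47000001, with mean counts of 2.07, 2.01, 1.97 and 1.960 times the median. They lie on the long arm, well apart from each other. The bin from 80000001 to 81000000 held 83 EV, 55 TAZ4SA, 106 YAP5SA, 133 CAMTA1, 92 TFE3, 150 TAZ-CAMTA1 and 135 YAP-TFE3 peaks. Between 22.7% and 25.3% of all autosomal bins were denser than these 4.

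The longest run of bins low in all lists spanned 7 Mb, chr10:53000001-60000000, and held 138 peaks over the 7 lists. Runs of 4 bins lay at chr10:83000001-87000000 with 213 peaks and chr10:107000001-111000000 with 33 peaks. Runs of 3 bins lay at chr10:18000001-21000000 with 116 peaks and at chr10:66000001-69000000 with 26. These were short deserts, found on both arms, with bins that were not low in all lists on either side.

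The sparsest bins that held a peak, from 109000001 to 110000000, from 117000001 to 118000000 and from 83000001 to 84000000, had 1 peak each over the 7 lists, which was weak. The lists followed the same landscape. Across the 136 bins, Spearman's rho of the counts of a pair of lists was 0.892 to 0.980, with a median of 0.955, a description of bins that share gene content, base composition and mappability. The lists thus ranked the bins alike.

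**Figure D3:**
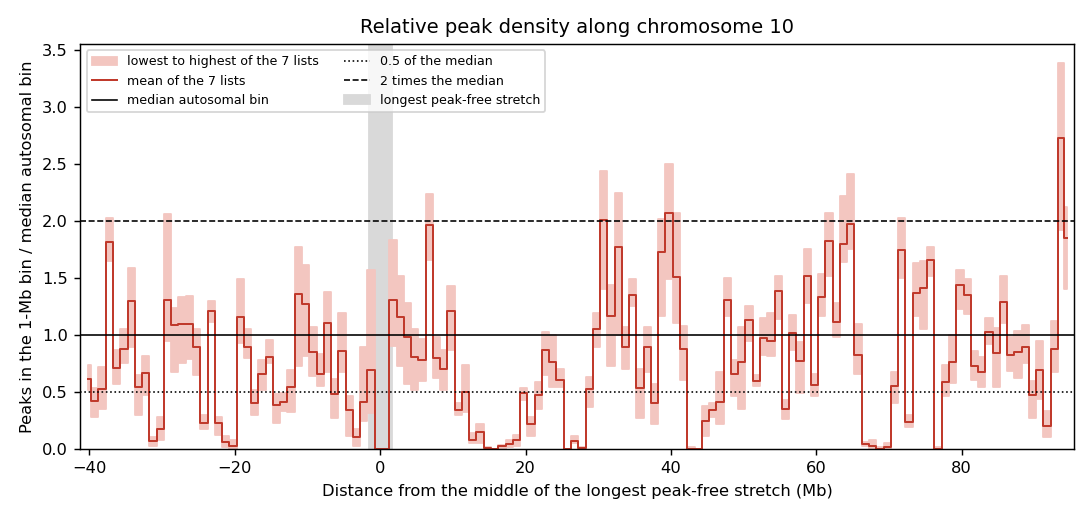
Peaks per 1-Mb bin divided by the median autosomal bin (y axis) against the distance in Mb from the middle of the longest peak-free stretch (x axis), as the mean of the 7 lists (red line) and their range (pink). The line crosses the median repeatedly on both sides, falls to near 0 in several short runs, and rises to 2.72 times the median near the right end.

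The arms were set apart by the longest stretch with no peak in any list, chr10:39154939-42354894, 3.20 Mb long, which lies at the centromere. The other peak-free stretches were shorter, the next being 2.33 Mb at chr10:55064202-57391037 and 2.27 Mb at chr10:83057100-85324892. The EV list had 26.4 peaks per Mb on the short arm and 32.2 on the long arm, a ratio of 0.82 (counting interval 0.77 to 0.88). The ratio was 0.90 (0.83 to 0.97) in the TAZ4SA list and 0.90 (0.85 to 0.95) in the YAP5SA list. The short arm was the sparser in each.

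The ratio of short to long arm was 0.86 in the CAMTA1 list, 0.85 in the TFE3 list, and in the fusion lists 0.85 (TAZ-CAMTA1) and 0.86 (YAP-TFE3). On the other 16 autosomes that are not acrocentric, the same ratio ran from 0.47 to 1.92 in the EV list, and 2 to 4 of them lay below chromosome 10, depending on the list. Both arms were sparse when set against the median of the 32 other arms, the short arm at 0.397 to 0.499 of it and the long arm at 0.466 to 0.584. In every list 1 other arm was below the short arm, and 1 to 4 were below the long arm. The difference between the arms was thus small beside the distance of either arm from the median.

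A fit of constant segments to the log2 relative density of the occupied bins asked for steps. The best pair of segments met at 70 Mb, with relative densities of 0.443 before and 0.670 after, and took up 3.43% of the variation between bins. This was less than on each of the other 21 autosomes, where the share ran from 4.90% on chromosome 3 to 44.8% on chromosome 15 with a median of 12.9%. Fitted to each list alone, the break came at 69 or 70 Mb in 5 lists and at 119 Mb in the CAMTA1 and YAP-TFE3 lists. In the CAMTA1 list the part after that break lay at 1.03 times the median. No single step along the chromosome took up much of the variation.

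With 3 segments the fit set apart the desert from 53000001 to 60000000, at 0.065 of the median, between stretches at 0.593 and 0.610, and took up 17.3% of the variation. With 5 segments the densities were 0.593, 0.152, 0.836, 0.062 and 0.775 along the chromosome, for 34.6%. In these fits every stretch lay below the median, and the sharpest steps were the edges of peak deserts. With bins of 2 Mb and 4 segments, a stretch from 70000001 to 82000000 stood out instead at 1.14 times the median. The lists hold no read depth and no DNA control, so a lower copy number of the whole chromosome, fewer open sites per copy and the calling of peaks cannot be told apart.

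The ratio of the lists to each other differed on chromosome 10 from the other autosomes. Per EV peak it held 1.63 CAMTA1 peaks (counting interval 1.56 to 1.69, median of the other autosomes 1.38), 1.20 TFE3 peaks (1.15 to 1.25, median 0.958) and 1.74 YAP-TFE3 peaks (1.67 to 1.80, median 1.44), in each case more than on any other autosome. The TAZ-CAMTA1 ratio was 1.68 (median 1.47), exceeded by chromosome 22, and the YAP5SA ratio 1.48 (median 1.37), exceeded by chromosome 18. The TAZ4SA ratio was 0.832, below its median of 0.870, with 5 other autosomes lower. All 6 ratios share the EV list, so they are not independent of each other.

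Chromosome 13 was the opposite case, with the lowest ratio of all other autosomes for CAMTA1 (0.866), TFE3 (0.522), YAP5SA (1.13), TAZ-CAMTA1 (0.890) and YAP-TFE3 (0.950). Without EV in the ratio, chromosome 10 still held more YAP-TFE3 peaks per YAP5SA peak than any other autosome, 1.17 against a median of 1.05. It held 2.02 TAZ-CAMTA1 peaks per TAZ4SA peak, where the median was 1.71 and chromosome 22 alone was higher. Per CAMTA1 peak there were 1.03 TAZ-CAMTA1 peaks (1.00 to 1.07, median 1.07), and per TFE3 peak 1.45 YAP-TFE3 peaks (1.39 to 1.50, median 1.49), so that neither ratio was separated from its median by counting error. The YAP-TFE3 to TFE3 ratio was above its median for strong peaks (1.68 against 1.56) and below it for weak peaks (1.25 against 1.43). The surplus relative to EV was thus found for the fusions and for the full-length partners alike.

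The surplus was spread along the chromosome. Of the 105 bins with at least 10 EV peaks, 98 (93.3%) had a TFE3 to EV ratio above that of the other autosomes together, where 68.8% of such bins elsewhere did. For CAMTA1 it was 92 bins (87.6% against 63.9%), for YAP-TFE3 91 (86.7% against 64.6%) and for TAZ-CAMTA1 90 (85.7% against 62.1%). Such shares were not particular to chromosome 10. The highest on another autosome was 94.4% for TFE3, 91.7% for CAMTA1, 87.3% for YAP-TFE3 and 94.4% for TAZ-CAMTA1. The ratios on the short and the long arm were 1.69 and 1.61 for CAMTA1, 1.24 and 1.19 for TFE3, 1.72 and 1.67 for TAZ-CAMTA1, and 1.79 and 1.72 for YAP-TFE3. Both arms took part in it to a like degree.

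Merging the peaks of all lists gave 9605 sites on chromosome 10, or 70.9 per Mb, where the median of the other autosomes was 122 and chromosome 4 alone was lower. A site is a stretch covered by overlapping peaks, held by each list with a peak in it. Sites held by a single list made up 35.6% (3424, Wilson interval 34.7 to 36.6), the smallest share of the 22 autosomes, whose other values ran from 36.3% to 51.8%. Among strong peaks alone the share was 26.7% against a median of 27.3%, with 6 other autosomes lower, so the shortage was small there. Sites held by 4, 5 and 6 lists made up 7.73%, 7.35% and 8.61%, each the largest share of the 22. Sites in all 7 lists made up 17.4% (1675), near the median of 16.4%.

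The shortage of single-list sites was in the lists of EV and the mutant coactivators. These lists also had the lowest density ratios on chromosome 10, and the share of sites held alone moves with the number of peaks. Sites of the EV list alone numbered 75, or 0.781% of the sites (median of the other autosomes 2.43%), and sites of TAZ4SA alone 117, or 1.22% (median 3.44%), both the smallest share of the 22. YAP5SA alone held 780 sites (8.12%, median 10.2%). CAMTA1 alone held 552 (5.75%, median 5.56%), TFE3 alone 44 (0.458%, median 0.413%), TAZ-CAMTA1 alone 919 (9.57%, median 9.70%) and YAP-TFE3 alone 937 (9.76%, median 8.30%). The shares for the factors that bind DNA and for their fusions lay near or above the median.

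**Figure D4:**
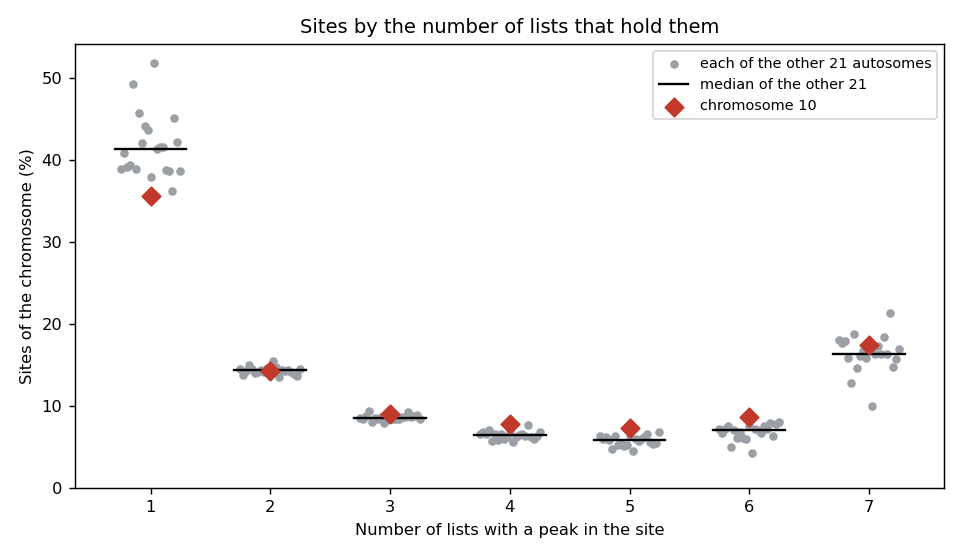
Percent of the merged sites of a chromosome (y axis) held by 1 to 7 lists (x axis), with chromosome 10 as a red diamond, the other 21 autosomes as grey points and their median as a black line. Chromosome 10 is the lowest point at 1 list (35.6%) and the highest at 4, 5 and 6 lists.

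Among the sites in 4 to 6 lists, the largest surplus lay in combinations without TAZ4SA. Sites in the lists of YAP5SA, CAMTA1, TFE3 and both fusions numbered 333 (3.47%, against 1.67% on the other autosomes together), the largest share of the 22. Sites in the lists of CAMTA1, TFE3 and both fusions numbered 249 (2.59% against 1.18%), also the largest. Sites in every list but TAZ4SA numbered 564 (5.87% against 4.20%), with 2 other autosomes higher, and those in every list but EV 190 (1.98% against 1.19%), the largest of the 22. Each of these 4 combinations held CAMTA1, TFE3 and both fusions.

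Sites that the fusions alone shared numbered 405 (4.22% of the sites, median of the other autosomes 3.29%), 86 on the short and 319 on the long arm. Ranked by the smaller of their areas under the caller's curve in the fusion lists, the first lay at chr10:71166024-71166700, with areas of 439 (TAZ-CAMTA1) and 401 (YAP-TFE3). The next lay at chr10:45966110-45966518 (504 and 384) and at chr10:88424586-88425148 (365 and 363). The nearest peak of another list lay 656, 5412 and 2644 bp from these sites in turn. Fusion-only sites were small beside shared sites: their median summit −log10 p was 4.14 and that of the sites in all 7 lists 8.15.

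Sites in the TAZ4SA and YAP5SA lists and no other numbered 64 (0.666%, median 0.948%). The largest, chr10:111436209-111436980, had areas of 536 and 1388 in these lists. Among the sites in 6 lists but not TAZ4SA, the largest lay at chr10:114786221-114788089, with areas of 1025 in the EV, 1926 in the YAP5SA, 2010 in the CAMTA1, 1278 in the TFE3, 5387 in the TAZ-CAMTA1 and 2702 in the YAP-TFE3 list. Within that site the TAZ-CAMTA1 peak stood out. The largest site of 1 list alone was that of YAP-TFE3 at chr10:19206627-19207303, with an area of 1304. A peak of another list lay 331 bp from it.

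The 5 sites in all lists with the largest smallest area all lay within 250 kb of the long-arm edge of the centromeric stretch, from 42383966 to 42600696. At the first, chr10:42397821-42401250, the summit −log10 p was 46.2 in the EV, 49.2 in the TAZ4SA, 45.9 in the YAP5SA, 42.3 in the CAMTA1, 27.5 in the TFE3, 41.4 in the TAZ-CAMTA1 and 39.4 in the YAP-TFE3 list. TAZ4SA was highest and TFE3 lowest at each of the 5. Such heights were found nowhere else among the sites named here, and repeats beside centromeres are known for piled-up reads, whose part in these values was not tested.

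The 5 bins around the stretch, chr10:38000001-43000000, held 119 EV, 143 TAZ4SA, 119 YAP5SA, 117 CAMTA1, 98 TFE3, 106 TAZ-CAMTA1 and 118 YAP-TFE3 peaks. The short TAZ4SA list thus had the most peaks there, 4.26% of its chromosome 10 peaks against 1.56% of those of TAZ-CAMTA1. On the short-arm side the counts were 58, 91, 65, 49, 23, 38 and 44 in the same order of lists. Of the 117 sites of TAZ4SA alone, 35 lay in these bins.

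Outside these bins, the largest site in all lists by the same measure was chr10:47055870-47059246, a choice made after the values were seen. Its summit −log10 p was 11.2 in the EV, 12.3 in the TAZ4SA, 18.9 in the YAP5SA, 17.0 in the CAMTA1, 12.9 in the TFE3, 18.1 in the TAZ-CAMTA1 and 19.998 in the YAP-TFE3 list. Here YAP-TFE3 was the highest and EV the lowest, unlike beside the centromere. The next 4 such sites, which began at 17268787, 65388287, 112677631 and 131907885, lay on both arms, with summit values from 10.9 to 19.8.

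The overlap between lists was set against the other autosomes with the Jaccard index, the bases covered by both lists divided by those covered by either. Of the 21 pairs, 12 had a lower index on chromosome 10 than the median of the other autosomes. EV with YAP-TFE3 had 0.505 against 0.555 and EV with CAMTA1 0.540 against 0.577, with 1 other autosome lower in each, and EV with TAZ-CAMTA1 had 0.503 against 0.540, with 2 lower. The fusions overlapped each other at 0.696 against 0.686. The pair of EV and YAP-TFE3 was the furthest below the median of all 21.

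The next 3 were TAZ4SA with YAP-TFE3 (0.361 against 0.402), TFE3 (0.463 against 0.501) and CAMTA1 (0.395 against 0.433), and TAZ4SA with TAZ-CAMTA1 was also below (0.341 against 0.370). EV with TAZ4SA had 0.516 against 0.498, a higher index than the median. EV and TAZ4SA, the lists with the lowest density ratio on this chromosome, thus had a lower index with CAMTA1, TFE3 and the fusions but not with each other. Whether this goes beyond the unequal number of covered bases was not tested. In windows of 250 bp on each side of the summits, however, TAZ4SA with TFE3 and EV with TFE3 lay above the median, at 0.342 against 0.338 and 0.468 against 0.459, and the other 3 of these TAZ4SA pairs differed from it by -0.0031 to -0.0093. Among strong peaks 19 of the 21 pairs lay below the median, and EV with CAMTA1 (0.544), TAZ-CAMTA1 (0.506) and YAP-TFE3 (0.502) had the lowest index of all 22 autosomes.

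As a share of each list, 57.0% of the 7000 YAP-TFE3 peaks overlapped no EV peak (Wilson interval 55.9 to 58.2), against 50.7% on all autosomes. For CAMTA1 it was 52.3% (51.0 to 53.5, against 46.9%) and for TFE3 34.5% (33.1 to 35.8, against 27.6%). In these 3 lists the share was the highest of the 22 autosomes. For TAZ-CAMTA1 it was 55.6% (54.5 to 56.8, against 51.5%), with chromosome 22 alone higher.

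YAP5SA had 47.4% of its peaks without an EV peak (46.2 to 48.7, against 48.0%). TAZ4SA had 24.6% (23.2 to 26.1, against 34.0%), with 3 other autosomes lower. Read from the other side, few EV peaks of chromosome 10 lacked a partner. Of the 4034 EV peaks, 5.53% overlapped no TAZ-CAMTA1 peak (median of the other autosomes 10.5%), 8.63% no CAMTA1 peak (16.4%) and 15.8% no TFE3 peak (26.4%), each the lowest of the 22. Within the classes this did not hold for TAZ-CAMTA1 and CAMTA1, and it held for TFE3 among weak peaks alone. Strong EV peaks without a strong peak of TAZ-CAMTA1 and CAMTA1 made up 2.82% (median 3.29%) and 4.403% (6.33%), with 8 and 3 other autosomes lower. Weak EV peaks without a weak peak of these 2 lists made up 81.5% (75.2%) and 78.5% (73.6%), with 1 and 0 other autosomes higher. For TFE3 the strong share was 12.0% (14.3%), with 3 other autosomes lower, and the weak share 61.2% (66.9%), the lowest.

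The shares for YAP-TFE3, YAP5SA and TAZ4SA were 8.30% (median 15.3%), 19.7% (27.3%) and 45.9% (50.2%). From 5.53% to 45.9% of the EV peaks thus lacked a counterpart, depending on the list. Both shares move with the number of peaks a list has on the chromosome. Equal numbers of peaks were also taken from every whole list, which does not make the numbers on chromosome 10 equal. CAMTA1, TFE3 and YAP-TFE3 then had the highest share without an EV peak of the 22 autosomes, at 41.8%, 36.7% and 45.1%. This setting cannot separate the shares from the number of peaks on the chromosome.

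**Figure D5:**
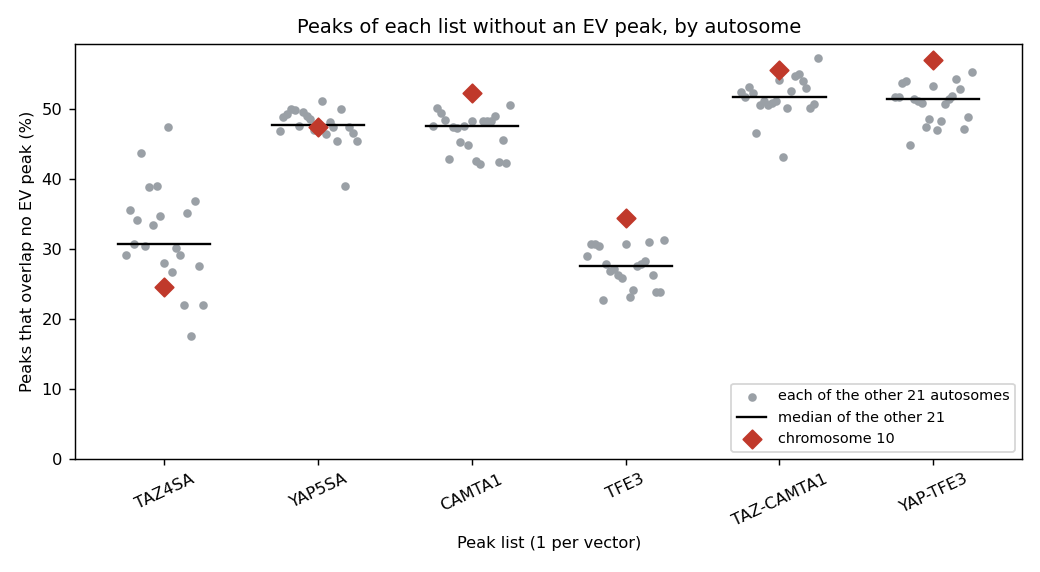
Percent of the peaks of a list that overlap no EV peak (y axis) on each autosome, for the 6 lists other than EV (x axis), with chromosome 10 as a red diamond, the other 21 autosomes as grey points and their median as a black line. The diamond is the top point for CAMTA1 (52.3%), TFE3 (34.5%) and YAP-TFE3 (57.0%), and lies below the median for TAZ4SA (24.6%).

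The overlap was also followed along the chromosome. Sites in all 7 lists made up 18.4% of the 7791 sites in bins that were low in no list (17.6 to 19.3) and 12.8% of the 475 sites in bins low in all lists (10.1 to 16.2). Sites of 1 list made up 34.7% and 41.1% of them. On the short arm 16.0% of the sites (14.7 to 17.5) were in all lists, and on the long arm 18.0% (17.1 to 18.9). The sparse bins thus held the less shared sites, and the bins were set by the same counts of peaks.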

How the data were processed

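ATAC-seq libraries of SW872 cells were deposited by the authors as 7 peak lists, 1 per vector. According to the methods, NGmerge trimmed the reads, BWA-MEM aligned them and Genrich called peaks in its ATAC mode. The processing notes name Bowtie 0.12.2 and mm8, whereas the coordinates run past the end of chromosome 10 in hg38 and fit human hg19. By the methods each replicate had its own peak calling, but the files give 1 list per vector, and how libraries were combined into it is not given in the sources used here. The deposited signal is an area, the sum of the caller's statistic over the peak. The authors also deposited the −log10 p of the summit, a −log10 q and a score, of which the q and the score were not used, and peak positions, printed counting from 1.

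Chromosome lengths were the last base of any peak. Peaks were counted per Mb, per bin of 1 Mb (by summit), per arm and per merged site (overlap of 1 bp or more), with Wilson, exact Poisson or log-normal counting intervals at 95%. Segments were fitted by least squares to log2 of the bin count plus 1, with at least 5 bins each, leaving out empty bins. Chromosome 10 was ranked among the 22 autosomes, which are not replicates. The acrocentric autosomes were left out of the arm comparison and counts per gene were added, both after the values were seen. Named were the 5 densest and 5 sparsest bins and the sites of largest area in fixed combinations of lists. The area and the summit −log10 p of a list in a site were the largest among its peaks there. The members and lists were chosen with earlier results of these data known. No hg19 annotation was used, so no gene is named from a position. Python 3.11.15, numpy 2.4.6, scipy 1.17.1 and pandas 2.3.3 were used, and the scripts were tested on simulated data.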

Additional observations from a re-analysis of the deposited data

How the results depend on the processing

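The median ratio of chromosome 10 density stayed below 1 in every setting tried: 0.588 by bases covered, 0.581 per occupied bin, 0.599 for weak and 0.692 for strong peaks, 0.653 and 0.651 for peaks whose summit reached a −log10 p of 4 and of 6, 0.667 when every list gave the same number of peaks and 0.790 per protein-coding gene, against 0.625. The arm ratio went from 0.858 to 0.762 by bases covered. The low bins came to 41.2% with bins of 500 kb and 23.5% at a limit of 1/3 of the median, against 33.1%. The autosomal shares at these settings are not given here, so no surplus or shortage is read from these values. A pair of segments took up 2.68% of the variation with bins of 500 kb, 6.49% with bins of 2 Mb, 4.37% for weak peaks, and 4.21%, 2.78% and 3.996% in the EV, YAP5SA and TAZ-CAMTA1 lists alone. The difference in the Jaccard index of EV and YAP-TFE3 from the other autosomes was -0.071 for strong peaks and -0.021 for windows of 250 bp around summits, against -0.050, and that of the fusions 0.032 for such windows against 0.0093. With these windows 6 of 21 pairs lay below the median. The share of sites in all 7 lists, 1.07 percentage points above the median, came to -3.01 for strong peaks and -0.0054 for summits that reached 4. The YAP5SA share without an EV peak, -0.31 points from the median, came to 4.08 for strong peaks, 1.13 for summits that reached 4, 1.98 with list lengths made equal and 0.88 with windows. The causes were not tested. Of 217 other values, 126 moved by less than about 0.5 of the width of their counting interval and 85 by more. The 6 just given changed sign. For segments the limit was the standard deviation over the lists fitted alone. By the same limits, 24 values of the main results moved by less and 20 by more. The count of 217 holds no Jaccard index, and pairs of lists changed sign as well. EV with YAP5SA went from 0.0070 to -0.014 for strong peaks, and TFE3 with YAP-TFE3 from -0.013 to 0.022 with windows. The median difference of the 21 pairs went from -0.0036 to -0.025 for strong peaks and to 0.022 with windows. With windows the index of the fusions was the highest of the 22 autosomes. No paired analysis was possible because no file gives a value for a single library, and leaving out single libraries was not run for the same reason. The depth behind the lists is unknown, so a site missing from a list may be present but not called.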
